A study of Mus musculus with 8 samples.

Results

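The nuclear-encoded subunits of respiratory complexes II, III and IV and of ATP synthase (complex V) were followed in inguinal (ING) white adipose tissue (WAT) of C57BL/6j mice at weaning and in young adulthood. The 35 genes were chosen by symbol, with no threshold on their values: 4 subunits of complex II, 9 of complex III, 7 of complex IV and 15 of complex V, with the COX tissue isoforms left out. All 35 were found among the 38356 genes with a summed FPKM value, and all 35 passed the filter of a mean of at least 1 FPKM over the 8 mice, which left 16086 genes. Poly(A)+ RNA had been sequenced from 4 mice of postnatal day 21 (PN21; m1, m49, m138, m145) and 4 of postnatal day 98 (PN98; m35, m106, m114, m125), 1 library per mouse.

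The labels name no transgene or treatment, and all mice came from breeders kept on the synthetic diet AIN93G, which the young stayed on after weaning. In the study, PN98 mice had then received AIN93M or a Western style diet (WSD), and the labels do not say which the 4 sequenced PN98 mice ate, so diet and age cannot be told apart between the groups, and whether diet differed among the 4 PN98 mice is not known here. The study killed females at PN21 and reared males. The labels give no sex, and Y-linked *Ddx3y* lay between 18.1 and 25.9 FPKM in all 8 libraries while *Xist* was at most 0.832 FPKM in any of them. Adipose tissue holds adipocytes, vessels, immune cells and progenitors, and in such bulk RNA fewer cells of a type and less RNA per cell cannot be told apart.

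Complex II (succinate dehydrogenase) belongs to both the TCA cycle and the respiratory chain and passes electrons from succinate to ubiquinone. Complex III hands them on to cytochrome c, and complex IV to oxygen; complexes III and IV pump protons, and complex V uses the returning protons to make ATP. Complex II is encoded in the nucleus alone, whereas the other complexes join nuclear subunits to a few made in the mitochondrion. Adipocytes of the brown and beige kind are dense in respiratory chain but let protons return through UCP1 without making ATP.

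Of the 35 genes, 33 had a lower level at PN98 than at PN21, and the median log2 fold change was −0.62, against −0.21 over all genes tested, of which 67.0% were lower. The log2 fold change is that of log2(FPKM + 1), PN98 minus PN21, so a negative value means a lower level at PN98. No single gene passed Benjamini-Hochberg adjustment over all genes in limma (0 of 35 with an adjusted p under 0.05, against 2.91% of all genes lower and 2.33% higher). The adjusted p-values ran from 0.0941 to 0.994. With an unadjusted p under 0.05, 12 of the 35 genes (34.3%) were lower and 0 higher, beside 19.0% and 8.17% of all genes.

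The 4 PN98 mice were far apart. In 32 of the 35 genes mouse m35 had the lowest PN98 value, in 32 mouse m125 had the highest, and m125 reached the lowest PN21 value in 33. The 4 PN98 values lay wholly below the 4 PN21 values in 1 gene, *Cox7a2l*, or 2.86% of the genes, while 9.99% of all genes tested were apart in that direction.

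**Figure D1:**
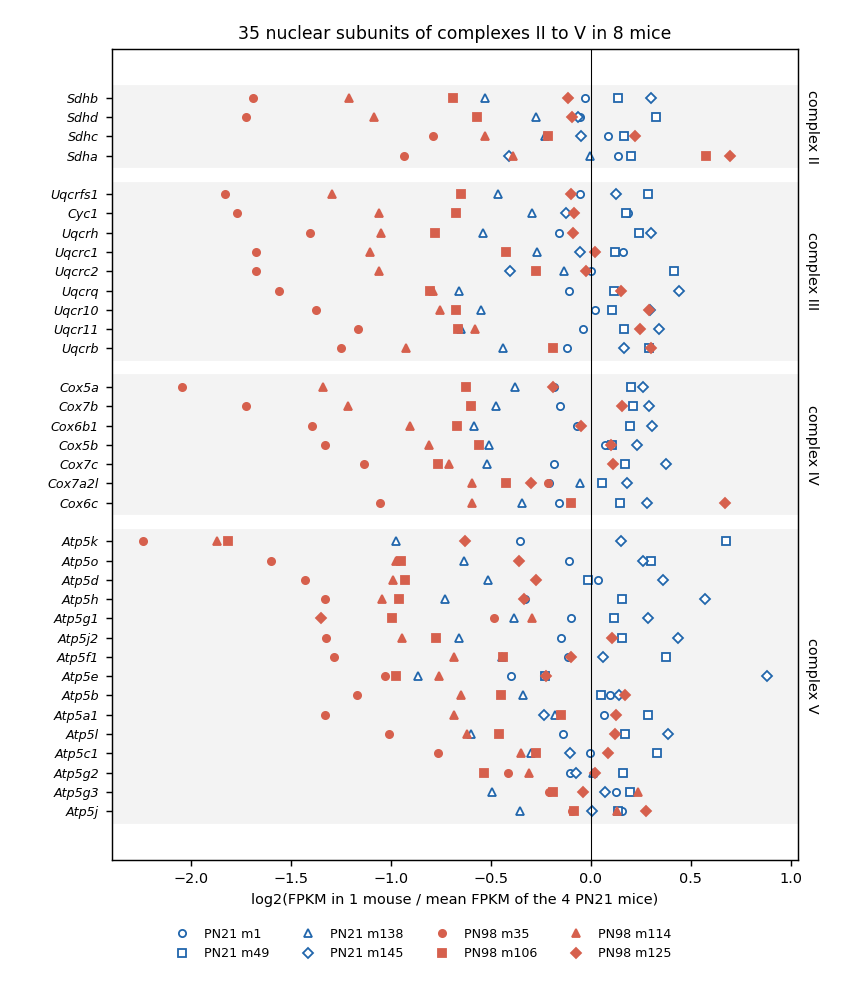
Each row is 1 gene and each point 1 mouse, placed at the log2 ratio of its FPKM to the mean of the 4 PN21 mice (open blue, PN21; filled red, PN98; the marker shape names the mouse). The circle of m35 stands furthest left in most rows, and the diamond of m125 reaches the leftmost open symbol in 33 rows; Cox7a2l, Atp5g1, Atp5g2, Atp5g3 and Atp5j are the rows in which another mouse stands furthest left.

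The RefSeq promoter windows of the genes (GRCm38.p6, 250 bases before to 50 bases after the transcription start) were searched on both strands for 3 motifs named after nuclear factors known from respiratory chain promoters. These were GCGCA and GCGC with 1 free base between them for NRF1, CCGGAAG for the ETS family to which the GABP factor belongs, and AAGATGGC for YY1. Windows were at hand for 27 of the 35 genes, 30 windows in all. The NRF1 letters stood in 9 windows (30%), against 9.46% of the 12806 windows of genes tested and 4.6% of all 32851 windows. The ETS letters stood in 10 (33.3%, against 16.9% and 8.86%) and the YY1 letters in 2 (6.67%, against 4.27% and 2.75%). These shares describe letters and were not tested, and a match is not a bound site.

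Stretches of 4 of these promoters are shown, 5′ to 3′ on the gene's strand, because they let the motifs be read beside genes of complexes II, III and V whose levels are given below. They hold only bases that no exon of GENCODE vM21 covers, and capitals mark the NRF1 letters in *Sdha* and *Atp5h* and the ETS letters, here on the opposite strand, in *Sdhd* and *Uqcrh*.
Sdha (chr13:74350281-74350308, minus strand): ggaggggcgtgttGCGCAGGCGCagaat
Sdhd (chr9:50603850-50603909, minus strand): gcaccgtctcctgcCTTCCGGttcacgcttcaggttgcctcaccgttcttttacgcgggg
Uqcrh (chr4:116075072-116075171, minus strand): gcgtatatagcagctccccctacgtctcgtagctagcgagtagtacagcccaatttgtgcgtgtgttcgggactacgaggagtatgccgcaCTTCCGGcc
Atp5h (chr11:115419963-115420062, minus strand): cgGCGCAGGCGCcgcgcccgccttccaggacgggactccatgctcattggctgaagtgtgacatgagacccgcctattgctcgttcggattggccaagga

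Within their whole windows *Sdha*, *Sdhd* and *Atp5h* hold an NRF1 match and *Sdhd*, *Uqcrh* and *Atp5h* an ETS match, not all of them in the stretches shown. On the log2 scale the levels differed between the ages by 0.0054 (*Sdha*), −0.85 (*Sdhd*), −0.79 (*Uqcrh*) and −0.83 (*Atp5h*). Whether motifs and levels are related was not tested.

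In complex II, *Sdhb*, *Sdhc* and *Sdhd* were lower at PN98 and *Sdha* was not. *Sdha* (chromosome 13 from 74322254 to 74350280 of mm10) encodes the flavoprotein that oxidises succinate. It had 919.5, 962, 835 and 631 FPKM at PN21 (m1, m49, m138 and m145, in this order) and 438, 1249, 638 and 1355 FPKM at PN98 (m35, m106, m114 and m125), and all values by mouse below follow this order. The mice m106 and m125 were above every PN21 mouse, m35 was below them all, and m114 lay just above the lowest PN21 value. With means of 837 ± 147 FPKM (SD, n = 4 mice) at PN21 and 920.0 ± 451 FPKM (SD, n = 4 mice) at PN98, its log2 fold change was 0.0054, with a 95% interval of −0.85 to 0.86 that allows a clear difference either way (limma, adjusted p = 0.994). It was negative in its protein-coding transcripts alone (−0.02) and 0.24 and 0.27 with median of ratios and nuclear scaling.

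*Sdhb* (chromosome 4 from 140961203 to 140979193) encodes the iron-sulfur subunit that takes the electrons from the flavoprotein, and its protein was the complex II subunit blotted in the study. It had 441, 494, 311 and 554 FPKM at PN21 and 139.6, 279, 194 and 416 FPKM at PN98. Only m125 overlapped the PN21 mice, and m35 had the lowest level. The log2 fold change was −0.89 (standard error 0.35, limma adjusted p = 0.154). *Sdhd*, a membrane anchor of the complex, had 252 ± 45.4 FPKM (SD, n = 4 mice) at PN21 and 150.3 ± 68.7 FPKM (SD, n = 4 mice) at PN98 (log2 fold change −0.85, adjusted p = 0.158). *Sdhc*, the other anchor, differed by −0.32 (adjusted p = 0.386).

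Within a mouse, *Sdhb* stood in a lower ratio to *Sdha* at PN98. The ratio of the FPKM values was 0.48, 0.513, 0.373 and 0.878 at PN21 and 0.319, 0.224, 0.305 and 0.307 at PN98, with no overlap between the ages. For *Sdhd* it was 0.264, 0.329, 0.25 and 0.383 at PN21 and 0.174, 0.136, 0.187 and 0.174 at PN98, again without overlap, and for *Sdhc* the ages overlapped. A ratio within a library does not depend on the scaling of that library. It was looked at after the values of *Sdha* had been seen, so it is a description without a test. Over protein-coding transcripts alone the *Sdhb* to *Sdha* ratio was 1.28, 1.4, 1.04 and 2.71 at PN21 and 0.938, 0.633, 0.895 and 0.833 at PN98, also without overlap.

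**Figure D2:**
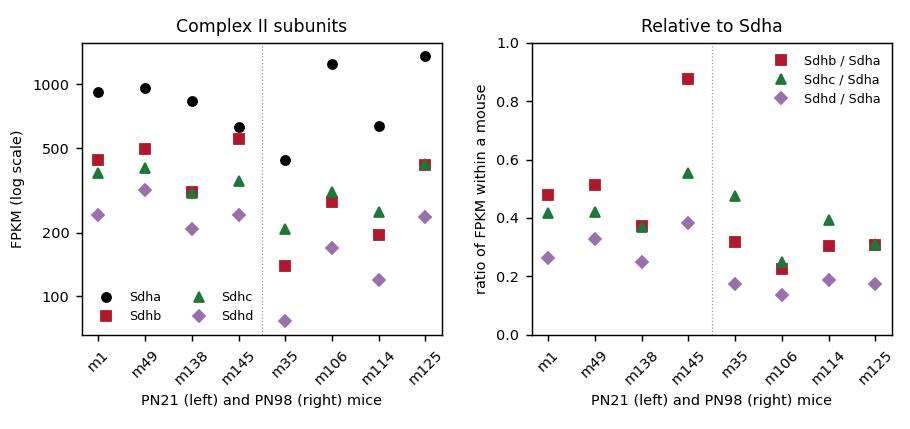
Left, FPKM on a log scale of the 4 complex II genes in each mouse; right, the ratio of Sdhb, Sdhc and Sdhd to Sdha within each mouse, with the dotted line between the ages. Sdha is above its PN21 values in m106 and m125, and the ratios of Sdhb and Sdhd to it are below every PN21 ratio in all 4 PN98 mice.

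All 9 genes of complex III had a lower mean at PN98, between −0.94 and −0.49 on the log2 scale with a median of −0.72. An unadjusted p under 0.05 in limma was reached by 3 of them (33.3%, against 19.0% of all genes), *Uqcrfs1*, *Cyc1* and *Uqcrh*. In every one of the 9, m35 was the lowest of all 8 mice and m125 the highest at PN98. *Uqcrfs1* (chromosome 13 from 30540308 to 30545362) encodes the Rieske iron-sulfur protein, which takes electrons from ubiquinol. It had 378, 478, 284 and 429 FPKM at PN21 and 110.1, 249.7, 159.9 and 367 FPKM at PN98, so that only m125 entered the PN21 range. Its log2 fold change of −0.94 (standard error 0.37, limma adjusted p = 0.155) was the lowest of the complex.

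*Cyc1* (chromosome 15 from 76343523 to 76346260), cytochrome c1, carries the electron from the Rieske protein to cytochrome c. It had 487, 483, 349 and 392 FPKM at PN21 and 125.4, 268, 206 and 404 FPKM at PN98. The values of m35, m106 and m114 were below all PN21 values and that of m125 was not (log2 fold change −0.88, limma adjusted p = 0.151).

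*Uqcrc2* (chromosome 7 from 120635176 to 120659524) encodes a core protein that builds the matrix side of the complex, and it is the complex III protein blotted in the study. Its level was 707, 944, 643 and 535 FPKM at PN21 and 222, 586, 339 and 695 FPKM at PN98. Here m106 also lay within the PN21 range, and the log2 fold change was −0.72 with a 95% interval of −1.58 to 0.13 (adjusted p = 0.235). Its partner core protein *Uqcrc1* had 456 ± 60.4 FPKM (SD, n = 4 mice) at PN21 and 289.7 ± 142 FPKM (SD, n = 4 mice) at PN98, a log2 fold change of −0.78.

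Of the small accessory subunits, *Uqcrh*, the hinge protein at cytochrome c1, had 1299 ± 331 FPKM (SD, n = 4 mice) at PN21 and 774 ± 317 FPKM (SD, n = 4 mice) at PN98 (log2 fold change −0.79, limma adjusted p = 0.158). *Uqcrq* (−0.70), *Uqcr10* (−0.60) and *Uqcr11* (−0.49) had smaller differences in log2 level, each with a 95% interval that includes 0. *Uqcrb* (chromosome 13 from 66900617 to 66905378), a subunit near the ubiquinone site, had the smallest difference. It measured 297, 395, 238 and 362 FPKM at PN21 and 136, 283, 170.1 and 398 FPKM at PN98. The value of m125 was above all PN21 values and m106 was inside their range (log2 fold change −0.49, adjusted p = 0.383).

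In complex IV (cytochrome c oxidase), all 7 genes had a lower mean at PN98. Their median log2 fold change was −0.62, and *Cox5a* and *Cox7a2l* had an unadjusted p under 0.05 (28.6%, against 19.0% of all genes). The catalytic core of this complex is made in the mitochondrion, and the nuclear subunits surround it. *Cox5a* (chromosome 9 from 57521274 to 57532426), a matrix-side subunit, had 492, 643, 429 and 669.6 FPKM at PN21 and 136, 362, 220.3 and 489.7 FPKM at PN98. Of the PN98 mice only m125 lay in the PN21 range, and m35 was at less than any other mouse. The log2 fold change was −1.02 (standard error 0.39, limma adjusted p = 0.147).

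*Cox6c* (chromosome 15 from 35925886 to 35938246), a small membrane subunit, was at the other end. It had 469, 579.7, 412 and 636 FPKM at PN21 and 252, 488, 348 and 834 FPKM at PN98, so m125 exceeded every PN21 mouse and m106 lay inside their range. Its log2 fold change of −0.25 (95% interval −1.07 to 0.57, adjusted p = 0.665) turned to 0.019 with scaling to nuclear genes and to 0.013 without m35.

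*Cox7a2l* (chromosome 17 from 83501918 to 83517330) was chosen here for being the gene whose ages did not overlap. Its protein is known for joining complexes III and IV into supercomplexes rather than as a subunit of the free oxidase. Whether it does so in this strain was not examined here. The gene had 140.1, 168, 156 and 183 FPKM at PN21 and 139, 120.4, 107 and 131 FPKM at PN98. Its highest PN98 value was close to the lowest PN21 value and in m35, the mouse that was lowest for most other genes. The log2 fold change was −0.37 (standard error 0.15, the smallest of the 35 genes; limma adjusted p = 0.168). After median of ratios scaling or scaling to nuclear genes its ages overlapped.

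*Cox7b* had 750.2 ± 175 FPKM (SD, n = 4 mice) at PN21 and 471 ± 268 FPKM (SD, n = 4 mice) at PN98 (log2 fold change −0.81, adjusted p = 0.217). The differences in log2 level of *Cox6b1*, on the intermembrane side, of the zinc-binding *Cox5b* and of *Cox7c* were −0.72, −0.62 and −0.58, each with m35 lowest and m125 highest of the PN98 mice.

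Of the 15 genes of complex V, 14 were lower at PN98. The median log2 fold change was −0.59. An unadjusted p under 0.05 in limma was reached by 5 (33.3%, against 19.0% of all genes), *Atp5k*, *Atp5d*, *Atp5o*, *Atp5g1* and *Atp5h*. The catalytic head F1 is built of the subunits α (*Atp5a1*), β (*Atp5b*), γ (*Atp5c1*), δ (*Atp5d*) and ε (*Atp5e*). *Atp5b* (chromosome 10 from 128083273 to 128090391), which holds the catalytic sites, had the highest summed FPKM of the 35 genes. Only 32.8% of it was in protein-coding transcripts, at a mean of 1070 FPKM over the 8 mice, below the 1485 FPKM of *Cox6b1*. Summed over all its transcripts, *Atp5b* had 4021, 3904, 2973 and 4152 FPKM at PN21 and 1674, 2759.8, 2399.6 and 4239 FPKM at PN98. The value of m125 was above all PN21 values and the other PN98 mice were below them (log2 fold change −0.51, adjusted p = 0.263).

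*Atp5a1*, on chromosome 18 and the complex V protein blotted in the study, had 1145, 1336, 966 and 931 FPKM at PN21 and 435, 986, 681 and 1193 FPKM at PN98. Both m106 and m125 lay in the PN21 range (log2 fold change −0.50, 95% interval −1.22 to 0.23, adjusted p = 0.328). *Atp5d* was the F1 gene with the lowest log2 fold change, −0.87, at 566 ± 135 FPKM (SD, n = 4 mice) against 315 ± 109 FPKM (SD, n = 4 mice) (limma adjusted p = 0.107). *Atp5e* (−0.59) and *Atp5c1* (−0.31) had 95% intervals that include 0.

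Among the stalk genes, *Atp5o*, the OSCP subunit that ties the head to the stator, had 1053 ± 288 FPKM (SD, n = 4 mice) at PN21 and 563 ± 195 FPKM (SD, n = 4 mice) at PN98 (log2 fold change −0.92, limma adjusted p = 0.115). *Atp5h*, subunit d, had 544 ± 210.4 FPKM (SD, n = 4 mice) and 298 ± 93 FPKM (SD, n = 4 mice) (log2 fold change −0.83, adjusted p = 0.152), and *Atp5f1*, subunit b, differed by −0.59. *Atp5j* (chromosome 16 from 84827866 to 84835625), coupling factor 6 of the same stalk, was the exception. Its level was 388, 383, 273 and 349 FPKM at PN21 and 326, 328, 382 and 421 FPKM at PN98. The ages overlapped, with PN21 mouse m138 below every PN98 mouse and m125 above every PN21 mouse (log2 fold change 0.07, 95% interval −0.33 to 0.47, adjusted p = 0.811). That interval leaves out a decrease as large as the median of the 35 genes, although the value is −0.05 in protein-coding transcripts alone, which hold 38.3% of its FPKM.

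*Atp5k* (chromosome 5 from 108433244 to 108434448), subunit e at the contact between ATP synthase dimers, had the lowest log2 fold change and by far the lowest level of the 35 genes per length. It had 5.4, 11, 3.51 and 7.67 FPKM at PN21 and 1.46, 1.96, 1.89 and 4.46 FPKM at PN98. Only m125 was within the PN21 range. The log2 fold change was −1.18 (standard error 0.36, limma adjusted p = 0.0941), and since 1 was added to each FPKM before the logarithm, it understates the difference; the ratio of the mean FPKM, PN98 over PN21, was 0.354. The other membrane subunits *Atp5j2* (subunit f) and *Atp5l* (subunit g) differed by −0.68 and −0.44.

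**Figure D3:**
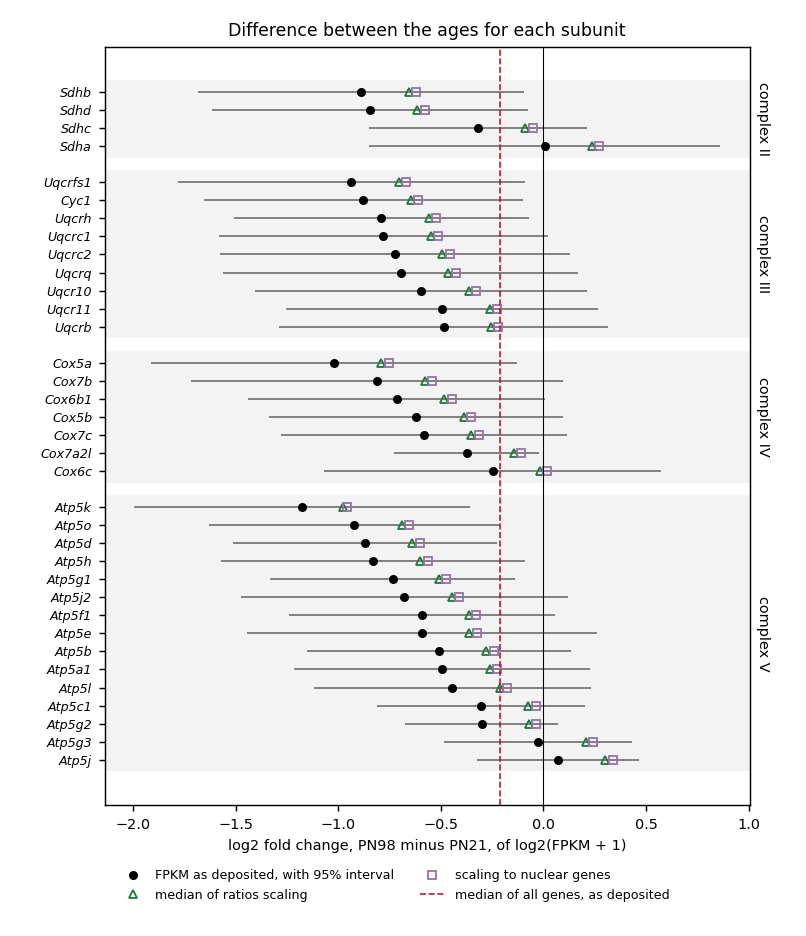
Log2 fold change of each gene (black point) with its 95% interval from limma, beside the values after median of ratios scaling (triangles) and scaling to nuclear genes (squares); the dashed line is the median of all genes tested at −0.21. Intervals of 12 genes end below 0, and Sdha, Atp5g3 and Atp5j stand to the right of the others of their complex under each scaling.

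*Atp5g1*, *Atp5g2* and *Atp5g3* encode the same mature c subunit, which forms the rotating ring, behind different import sequences. *Atp5g3* had 595, 626, 388 and 574 FPKM at PN21 and 471, 478, 643 and 531 FPKM at PN98. It held most of the summed FPKM of these genes at both ages. The ages overlapped, with m138 below every PN98 mouse and m114 above every PN21 mouse (log2 fold change −0.03, 95% interval −0.49 to 0.43, adjusted p = 0.943), and the sign turned under either scaling, to 0.20 and 0.24. *Atp5g2* had 89.8, 108, 97.3 and 91.7 FPKM at PN21 and 72.5, 66.8, 78 and 97.9 FPKM at PN98, of which only m125 lay in the PN21 range (log2 fold change −0.30, adjusted p = 0.255).

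*Atp5g1* (chromosome 11 from 96068852 to 96075670) had 42, 48.8, 34.5 and 54.9 FPKM at PN21 and 32.2, 22.6, 36.8 and 17.7 FPKM at PN98. Unlike nearly all other genes it was lowest in m125 and highest at PN98 in m114, the one PN98 mouse above the lowest PN21 value (log2 fold change −0.73, standard error 0.26, limma adjusted p = 0.13). Of the summed FPKM of the 3 genes, *Atp5g1* held 5.78%, 6.24%, 6.63% and 7.62% at PN21 and 5.59%, 3.98%, 4.85% and 2.74% at PN98. The share was lower in all 4 PN98 mice than in any PN21 mouse, with a mean difference of −2.28 percentage points (two-sided exact permutation test over 70 splits, p = 0.0286, the smallest this design can give; Benjamini-Hochberg 0.0857 over the 3 shares), and it did not pass the correction.

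*Atp5g3* held 79% ± 3.09 (SD, n = 4 mice) of the sum at PN21. At PN98 it held 83.3% ± 1.51 (SD, n = 4 mice; exact permutation p = 0.0571, Benjamini-Hochberg 0.0857). For *Atp5g2* the shares were 14.4% ± 2.95 (SD, n = 4 mice) and 12.4% ± 2.03 (SD, n = 4 mice; exact permutation p = 0.371, same value after correction).

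**Figure D4:**
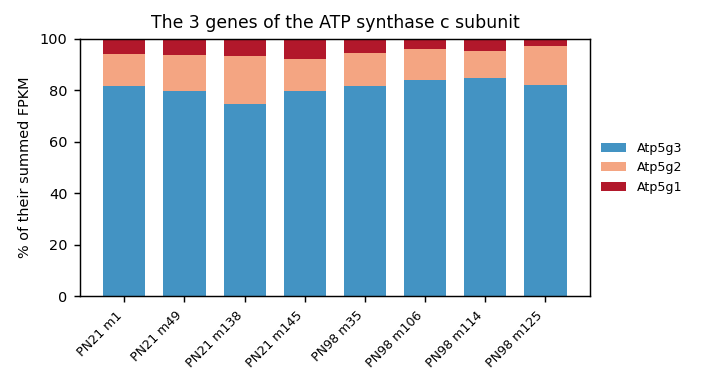
Stacked bars give, for each mouse, the percentage of the summed FPKM of Atp5g1, Atp5g2 and Atp5g3 that each gene held. Atp5g3 takes at least 74.6% in every mouse, and the Atp5g1 segment is thinnest in PN98 mouse m125 at 2.74%.

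The mean of log2(FPKM + 1) over the genes was 8.73 ± 0.19 at PN21 and 8.22 ± 0.64 at PN98 (SD, n = 4 mice) for complex II, 9.35 ± 0.29 and 8.64 ± 0.67 for complex III, 9.11 ± 0.31 and 8.49 ± 0.57 for complex IV, and 8.43 ± 0.32 and 7.87 ± 0.35 for complex V. In all 4 complexes m35 had the lowest and m125 the highest mean at PN98, and m125 lay above PN21 mouse m138. Within PN21, m138 was the lowest mouse in 30 of the 35 genes.

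**Figure D5:**
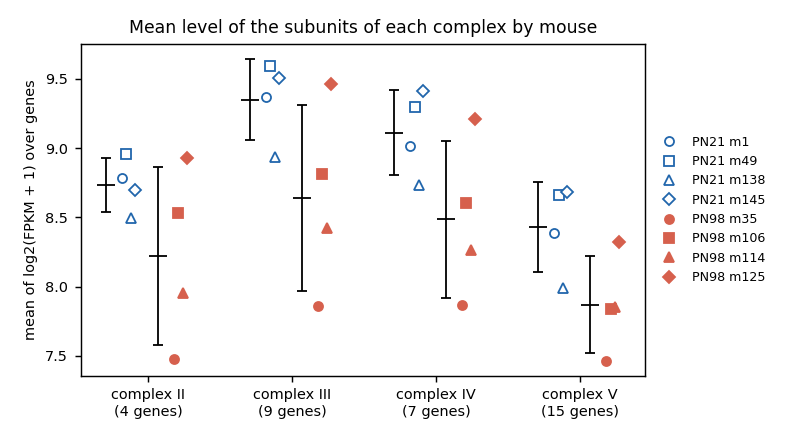
Points are the mean of log2(FPKM + 1) over the subunit genes of a complex in 1 mouse (open blue, PN21; filled red, PN98), and the bars beside them are the mean ± SD of the 4 mice. In each complex the PN98 mean is below the PN21 mean, and m125 stands within the PN21 points while m35 is lowest of all.

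Within PN98 the highest value of a gene was in the median 2.66 times its lowest, against 1.68 times within PN21. The spread was wider at PN98 in 29 of the 35 genes (82.9%). Of all genes tested, 63.0% had a wider range at PN98 on the log2(FPKM + 1) scale. By complex the median PN98 factor was 3.04 for complex II, 3.18 for III, 2.69 for IV and 2.19 for V. On that scale the median range among the PN98 mice was 1.34 for the 35 genes and 0.80 for all genes tested. Among the PN21 mice it was 0.75 and 0.67. Mouse m35 was lowest of the PN98 mice in 91.4% of the 35 genes and in 19.3% of all genes. Mouse m125 was highest in 91.4% and 14%. The genes of 1 library are not independent of each other, so these shares carry no test.

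Mice m125 and m35 were picked for being highest and lowest at PN98 in most of these genes. Leaving out m125 was therefore bound to lower the PN98 mean of most of them, and leaving out m35 to raise it. Without m125, 28 of the 35 genes were lower at an unadjusted p under 0.05 (all genes, 13.1%), 21 had ages that did not overlap (all genes, 11.4%) and 0 passed the adjustment (all genes, 1.57% lower), at a median log2 fold change of −0.87. Without m35, 5 (14.3%) were lower with p under 0.05, a share below that of all genes (30.4%). Ages did not overlap in 1 gene (2.86%, against 29.5% of all genes), 0 passed the adjustment (all genes, 18% lower), and the median log2 fold change was −0.43.

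FPKM is relative to a library's total, so the size of the difference depended on the scaling. A rescaling divides all genes of a library by the same factor. The position of the 35 genes relative to all genes could therefore hardly change, and its steadiness is no separate support. Relative to the median of all genes tested, the median of the 35 genes was −0.41 in the deposited FPKM. After median of ratios scaling it was −0.37, and after scaling each library to the same summed FPKM of nuclear genes −0.36. In absolute terms it moved from −0.62 to −0.39 and −0.35, with 32 and 31 of the 35 genes still lower (all genes, 51.5% and 49.4%). Only *Atp5k* (2.86% of the genes) was lower with p under 0.05 under either scaling, a smaller share than the 11.6% and 9.01% of all genes under the same scalings. Complex III was furthest below the median of all genes, with differences of −0.51, −0.47 and −0.47 on the log2 scale. For the same reason this order could hardly change with the scaling. Differences between complexes were not tested.

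The deposited values are per transcript, and for 11 of the 35 genes under 50% of the FPKM was assigned to protein-coding transcripts. The share was 2.27% for *Cox7b*, 11.7% for *Uqcrh*, 11.8% for *Atp5f1* and 15.9% for *Cox7c*. Over protein-coding transcripts alone all 35 genes had a negative log2 fold change (64.6% of all genes), and the median log2 fold change was −0.59. *Cox7b* was at −0.40 in place of −0.81 and *Uqcrh* at −0.44 in place of −0.79. *Atp5f1* was at −0.27 in place of −0.59 and *Atp5b* at −0.25 in place of −0.51, while *Cox7c* went the other way, from −0.58 to −0.64. The deposited table also lists the symbols of 19 of the genes beside transcripts of an overlapping gene, *Timm8b* for *Sdhd* and *Gabpa* for *Atp5j* among them. Those transcripts were not summed here, and whether the quantification used the strand of the directional libraries is not given in the sources used here.

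Transcript by transcript, on log2(FPKM) without a pseudocount, 96 transcripts of the 35 genes passed the filter of the study, and 85 had a lower mean at PN98 (all transcripts, 63.5%). With an adjusted p under 0.05 in limma, 2 were lower (2.08%, against 0.631% of all 22838 transcripts tested) and 0 higher; with an unadjusted p under 0.05, 22 were lower (22.9%, against 14.8% of all) and 0 higher. The 2 calls were not stable: 1 transcript was called after median of ratios scaling or with pseudocount 1, 0 after scaling to nuclear genes, and 0 on leaving out any mouse other than m35, without which 3 were called. Both called transcripts were minor ones of the retained intron class. That of *Atp5b* had 5.27, 5.97, 5.64 and 5.87 FPKM at PN21 and 3.33, 2.89, 2.71 and 2.48 FPKM at PN98, 0.131% of the FPKM of its gene (log2 fold change −1.002, limma adjusted p = 0.0373). That of *Atp5e* had 2.28, 1.76, 2 and 2.18 FPKM at PN21 and 0.934, 1.07, 1.1 and 0.731 FPKM at PN98, 0.151% of its gene (log2 fold change −1.11, limma adjusted p = 0.0477).

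Genes that work beside the subunits were compared in the same way. Of all genes tested, 67.0% were lower, 19.0% were lower at an unadjusted p under 0.05 in limma and 2.91% after adjustment. The counts of the lists here and below stand beside these shares. Of 34 assembly factors of complexes II to V, 28 were lower at a median log2 fold change of −0.29. An unadjusted p under 0.05 was reached by 7, close to the share of all genes, and 2 passed the adjustment. These 2 fell without overlap between the ages. *Bcs1l*, which inserts the Rieske protein into complex III, had 15.8, 18.9, 13.3 and 15.4 FPKM at PN21 and 7.22, 8.27, 7.87 and 9.92 FPKM at PN98 (log2 fold change −0.85, limma adjusted p = 0.0262). *Cox10*, which makes heme O on the way to the heme A of complex IV, had 12.2, 14.7, 9.77 and 12 FPKM at PN21 and 4.48, 6.59, 4.76 and 7.51 FPKM at PN98 (log2 fold change −0.96, limma adjusted p = 0.0355).

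Of 10 tested genes that work beside the complexes, 9 were lower. The list holds carriers of electrons, adenine nucleotides and phosphate, a mitochondrial creatine kinase, the ATP synthase inhibitor *Atpif1* and the ATP synthase subunit *Usmg5*. *Atpif1* and the adenine nucleotide carrier *Slc25a5*, named after their values were seen, had an unadjusted p under 0.05 (2 of 10, 0 after adjustment, median −0.57). *Cycs*, cytochrome c, had 153, 180.1, 98.2 and 143 FPKM at PN21 and 38.1, 110.4, 72.5 and 186 FPKM at PN98, with m35 lowest and m125 highest of all 8 mice (log2 fold change −0.69, limma adjusted p = 0.344). Of 9 tested tissue isoforms and other subunits of complex IV, 8 were lower, 3 with p under 0.05, and *Cox6b2*, a form of COX6B best known from testis, fell from 10.5, 17.7, 14.6 and 19.4 FPKM to 8.01, 4.55, 6.26 and 5.01 FPKM (log2 fold change −1.24, limma adjusted p = 0.0259). The log2 fold changes of this list ran from −2.48 (*Cox7a1*) to 0.67 (*Cox6a2*) with a median of −0.46. *Cox8a* and *Cox7a2* were at −0.12 and −0.13.

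Of 10 regulators of respiratory chain genes, 9 were lower (4 at an unadjusted p under 0.05, 0 after adjustment, median −0.50). *Ppargc1a*, a coactivator of mitochondrial genes, had 3.42, 3.78, 3.05 and 2.1 FPKM at PN21 and 0.967, 1.91, 1.9 and 2.93 FPKM at PN98, again with m35 lowest and m125 highest at PN98 (log2 fold change −0.51, limma adjusted p = 0.21).

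Markers of cell types also differed between the ages and between mice, and their part in the values above was not tested. Beside the counts that follow, 19.0% of all genes were lower and 8.17% higher at an unadjusted p under 0.05 in limma. After adjustment these shares were 2.91% and 2.33%. The summed FPKM of 10 brown adipocyte markers, which include the respiratory genes *Cox7a1* and *Cox8b*, was 4110.4, 4146, 3174 and 6562 at PN21 and 389, 2571, 1071 and 4399.9 at PN98. *Cox7a1* and *Cox8b* made up most of this sum in every mouse. *Cox8b* alone had 1802, 1676, 1175 and 3540 FPKM at PN21 and 247, 942, 655 and 2003 FPKM at PN98. Among the PN98 mice the sum was lowest in m35, followed by m114, m106 and m125, the order in which 26 of the 35 subunit genes stand. Since the sum is mostly respiratory chain RNA, this likeness is partly built in, and the share of all genes in that order was not counted. *Ucp1* had 544, 649.9, 586 and 559 FPKM at PN21 and 7.41, 278, 56.3 and 356 FPKM at PN98 (log2 fold change −2.81, limma adjusted p = 0.149). Other markers differed from it. *Cidea* had 480, 405, 415 and 631 FPKM at PN21 and 55.2, 721, 187 and 1064 FPKM at PN98 (log2 fold change −0.67, limma adjusted p = 0.618). In *Cidea*, *Elovl3* and *Otop1* the mice m106 and m125 were above every PN21 mouse. Of the list, 8 genes were lower (3 at an unadjusted p under 0.05, 0 after adjustment), and no marker was at 0 in all mice.

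The 9 markers found of skeletal muscle, a tissue rich in respiratory chain, were all higher at PN98 with p under 0.05, and *Atp2a1* (log2 fold change 4.20, limma adjusted p = 0.0407) and *Tcap* (3.35, adjusted p = 0.0291) passed the correction. Their summed FPKM was 63.9, 139.9, 561 and 137 at PN21 and 961, 3219, 1186 and 528 at PN98, highest in m106. The labelled tissue showed its defining adipocyte markers in all 8 mice, with a summed FPKM of 10 genes of 15479 to 31294 at PN21 and 36941 to 57450.4 at PN98, of which 9 were higher at PN98 and *Adipoq* (1.45, limma adjusted p = 0.0111) and *Lipe* (0.99, adjusted p = 0.0424) passed the correction.

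All 10 lymphocyte markers were lower in mean level (4 at an unadjusted p under 0.05, 0 after adjustment), at 428, 607, 1036 and 787 summed FPKM at PN21 and 945, 178, 59.9 and 18.5 at PN98. Mouse m35, lowest in the subunits, was highest of the PN98 mice in these, and m125 was lowest. Macrophage markers summed to 395 to 662 FPKM at PN21 and 171 to 802 at PN98 and endothelial markers to 165 to 229 and 73.6 to 255, each highest in m35 and lowest in m125 at PN98, with 0 of 6 and 0 of 5 genes passing the correction. The epithelial markers summed to 3.6 to 31 FPKM at PN21 and 0.895 to 2.03 at PN98, and 1 of 5 tested, *Epcam*, was lower with an adjusted p under 0.05 (0.0424 in limma). All 8 proliferation markers (*Mki67*, *Top2a*, *Ccnb1*, *Cdk1*, *Ccna2*, *Birc5*, *Ccnb2* and *Aurkb*) fell, with a summed FPKM of 96.9 to 161 at PN21 and 8.93 to 39.7 at PN98 and adjusted p-values in limma from 0.00559 to 0.0309.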

How the data were processed

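Poly(A)+ RNA of inguinal fat was sequenced in paired-end reads, 1 library per mouse. According to the submitters' processing notes and the paper's methods, the authors used CASAVA 1.8.2, FastQC, STAR 2.3.0 (mm10) and Cufflinks 2.1.1 on a Gencode annotation, and deposited FPKM per Ensembl transcript with decimal commas, partly lost. FPKM is the number of fragments scaled to the transcript's length and to the library's mapped fragments. Read counts were not at hand, so the depth is unknown and counting error cannot be stated. Lost marks in 40426 of 91969 transcripts were restored from the standard deviation, average and score (the log10 of the average over the standard deviation, each plus 1) that the authors deposited beside the values. In rows with intact decimals that standard deviation was found to cover 10 columns, of which 8 are held in the table, and the average to count the standard deviation as a further column; a reading was accepted where the 2 remaining values it implied were possible. Of the 40426 transcripts, 40368 had a single reading, 58 were left out, none of the 35 genes lost a transcript, and 5007 found in another deposited table with intact decimals were equal in all 8 mice. The authors' fold changes and p-values were not used.

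FPKM was summed per gene over its own transcripts by GENCODE vM21 (GRCm38, the build of the files). Genes with a mean of at least 1 FPKM were compared as log2(FPKM + 1) with limma 3.58.1 in R 4.3.3, and p-values adjusted by Benjamini-Hochberg over all 16086 genes. Transcripts followed the filter of the study, above 0 in all mice and a mean above 2 FPKM at PN21 or PN98, on log2(FPKM). In simulated data with 4 mice per age and independent noise in each gene, 27 of 100 genes changed by 1 on the log2 scale were recovered. Of 100 genes changed by 2, 69 were recovered, and 4 unchanged genes were called. The 35 genes varied together between the mice, so these rates need not hold for them. Mice were grouped by labelled age. All 35 genes are named, and values by mouse are given for the lowest and highest log2 fold change of each complex, for catalytic, electron-carrying or blotted subunits, for the c subunit genes and for any gene with a positive one. From other lists, genes with an adjusted p under 0.05 and *Ucp1*, *Cycs* and *Ppargc1a* are named. Further genes of these lists, *Cidea* and *Cox8a* among them, were named after their values were seen. The 35 genes and the other lists were chosen with earlier results of these data known. Alternatives were 2 scalings, other pseudocounts and filters, mouse weights, single transcripts and leaving out each mouse. Protein sequences were not used here.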

Additional observations from a re-analysis of the deposited data

Results flagged for a closer look

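*Atp5k* in PN98 mouse m125 was set far apart from the other PN98 mice, at 4.4644 FPKM against a next highest value of 1.96 FPKM. The gap was 0.833 of the whole range, above Dixon's 95% critical value for 4 values. In all, 76 groups of 4 values were examined in this way, and chance alone flags about 3.8 of them.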

How the results depend on the processing

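No paired analysis was possible because each mouse was killed at a single age. The study housed males in littermate pairs, and litter was not taken into account here. The count of genes called after adjustment was 0 in each alternative except weighting the mice (limma's arrayWeights), which called 7 (*Atp5d*, *Atp5g1*, *Atp5h*, *Atp5k*, *Atp5o*, *Cyc1* and *Uqcrh*, all lower), beside 21.6% of all genes lower and 7.14% higher. That setting gave 22 genes lower with p under 0.05 (62.9%, against 32.6% of all genes), and either rescaling gave 1 (2.86%, against 11.6% and 9.01%), where the deposited scale gave 12. Genes with ages apart were 0 with either rescaling (all genes, 6.87% and 4.64%). Leaving out 1 mouse gave 3 to 28 genes lower with p under 0.05. The share was below that of all genes without m49 (3 genes, 8.57% against 15%), m145 (3, 8.57% against 14.2%), m35 (5, 14.3% against 30.4%) and m114 (4, 11.4% against 13.9%). It was above without m1 (7, 20.0% against 16.2%), m106 (8, 22.9% against 11.8%), m138 (16, 45.7% against 14.5%) and m125 (28, 80.0% against 13.1%). Genes with ages apart were 1 to 21. They were 10 without m138 (28.6%, against 12.7% of all genes), 2 without m114 (5.71% against 11.9%), 21 without m125 (60.0% against 11.4%) and 1 otherwise (2.86%, against 10.5% to 29.5%). Called transcripts were 1 with median of ratios scaling and with pseudocount 1, with or without the condition on zeros, and 0 with scaling to nuclear genes. Without 1 mouse they were 0 to 3, with 3 without m35 and 0 without any of the others. Transcripts lower with p under 0.05 were 7 with either rescaling and, without 1 mouse, 10 (m1 or m49) to 41 (m125), against 22. The cause of these moves was not tested.

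Some log2 fold changes near 0 changed sign. *Sdha* was −0.0196 in protein-coding transcripts (chosen after seeing the data) and −0.23 to 0.31 without 1 mouse. *Cox6c* was 0.019 with scaling to nuclear genes and −0.56 to 0.013 without 1 mouse. *Atp5g3* was 0.20 and 0.24 with median of ratios and nuclear scaling and −0.18 to 0.0471 without 1 mouse. *Atp5j* was −0.0512 with mouse weights and −0.0530 in protein-coding transcripts, and −0.0424 to 0.13 without 1 mouse. The medians of all 35 genes and of each complex stayed below 0 under every alternative. Their moves were smaller than 0.41, the within-group spread between mice of the mean log2 level of the 35 genes. Leaving out 1 of 4 mice could hardly move them further, so this is no sign of steadiness. Without 1 mouse the median of the 35 genes was −0.87 to −0.43, and with the 2 scalings it was −0.39 and −0.35. The share of *Atp5g1* stayed lower at PN98 and short of the threshold after correction, with a difference of −2.71 to −1.76 percentage points without 1 mouse. The limits are 4 mice per age and an unknown depth, since no read counts were at hand.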
